A study of Mus musculus with 10 samples.

Results

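Globins and erythroid genes were followed through bulk RNA-sequencing of mouse dorsal root ganglia (DRG), the clusters of somatosensory neurons and glia beside the spinal cord. The members were the rows of the count tables whose Ensembl identifier maps to 10 named mouse symbols, and 9 of these 10 were matched among the 55414 genes of each table: *Hbb-bs*, *Hbb-bt*, *Hbb-y*, *Hbb-bh1*, *Hba-a1*, *Hba-a2*, *Hba-x*, *Alas2* and *Slc4a1*. *Ahsp*, which encodes a chaperone of free alpha-globin, was not analysed here. Ganglia were dissected at E18.5 in cold PBS from control and *WD1* cKO embryos, with 5 libraries for each group. Both groups carry *Dach1* flox/flox, and *WD1* cKO embryos also carry Wnt1Cre, which acts in the neural crest, the source of DRG neurons and glia, and deletes the floxed exon 2 of *Dach1*. Blood cells do not derive from the neural crest. The floxed mice were of mixed C57Bl/6J and CD1 background, and the controls were littermates, although the labels do not say which embryos share a litter. P-values therefore measure the spread between these 10 samples.

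The groups follow the sample titles. The genotype entries of the labels are exchanged between the groups, since those titled Control are entered as Wnt1Cre/+Dach1 flox/flox and those titled as Cre carriers as Wnt1+/+Dach1 flox/flox. *Dach1*, the targeted gene, went with the titles, with 35.0 to 41.6 CPM (counts scaled to a common library size) in the 5 control libraries and 19.1 to 20.7 CPM in the 5 *WD1* cKO libraries (log2 fold change -0.92, SE 0.05, adjusted p = 5.48e-06, quasi-likelihood test of edgeR, adjusted after Benjamini and Hochberg). The total count was between 20465132 and 27528784 in the control libraries and between 19757596 and 34796562 in the *WD1* cKO libraries. The 10 markers of DRG neurons summed to between 7241 and 7777 CPM in every library, so markers of the labelled tissue were present throughout. Control replicate 3 stood apart through spinal cord genes, whose 10 markers summed to 19.4 CPM there against 0.257 to 1.95 CPM in the other 9 libraries.

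Haemoglobin is a tetramer of alpha-like and beta-like globin chains, each holding a heme. In the mouse, primitive red cells of the yolk sac use the embryonic chains encoded by *Hba-x* (zeta), *Hbb-y* (epsilon-y) and *Hbb-bh1* (beta-h1), and definitive red cells of the fetal liver and later the bone marrow use *Hba-a1* and *Hba-a2* with *Hbb-bs* and *Hbb-bt*. *Alas2* encodes the erythroid form of the enzyme that starts heme synthesis, and *Slc4a1* encodes band 3, the anion exchanger that anchors the red cell membrane to its skeleton. In a dissected tissue these transcripts are commonly read as a measure of retained blood, although low globin expression has been described in neurons. In bulk samples, fewer red cells and less RNA per red cell cannot be told apart.

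The beta-like genes lie together on chromosome 7 and the alpha-like genes on chromosome 11, while *Alas2* is on chromosome X and *Slc4a1* on chromosome 11. The 120 bases before the annotated start were at hand for 7 members in RefSeq (GRCm38.p6), a build other than that of the counts. Promoters of an adult and an embryonic gene of each cluster and of *Alas2* are shown because these genes are the ones whose levels are compared in the next paragraphs. They are read 5′ to 3′ on the gene's own strand. Capitals mark CACCC and CCAAT, the GATA motif searched as AGATAA or TGATAA or AGATAG or TGATAG, all on both strands, and a TATA-like ATAAA or TATAA on the gene's strand, which can overlap each other.
Hbb-bs, chr7:103827929-103828048, minus strand: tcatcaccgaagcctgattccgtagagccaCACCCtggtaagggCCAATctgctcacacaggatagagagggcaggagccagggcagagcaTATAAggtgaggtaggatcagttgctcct
Hbb-y, chr7:103853208-103853327, minus strand: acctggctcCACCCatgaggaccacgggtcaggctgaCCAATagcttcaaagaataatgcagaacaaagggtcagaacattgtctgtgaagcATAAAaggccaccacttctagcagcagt
Hba-a1, chr11:32283552-32283671, plus strand: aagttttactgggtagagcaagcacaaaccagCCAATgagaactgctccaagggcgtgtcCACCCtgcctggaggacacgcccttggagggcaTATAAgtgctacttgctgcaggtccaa
Hba-x, chr11:32276480-32276599, plus strand: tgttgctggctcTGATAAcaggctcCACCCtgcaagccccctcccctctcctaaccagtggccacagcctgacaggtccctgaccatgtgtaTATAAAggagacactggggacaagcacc
Alas2, chrX:150547297-150547416, plus strand: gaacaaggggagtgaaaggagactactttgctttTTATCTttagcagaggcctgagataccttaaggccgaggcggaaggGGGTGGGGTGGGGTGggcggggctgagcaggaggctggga

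CACCC stood in the window of all 7 members with a promoter entry, among them 3 times in that of *Alas2*, against 31.7% of the 32851 promoters of the table. CCAAT was in the windows of *Hbb-bs*, *Hbb-bt*, *Hbb-y*, *Hba-a1* and *Hba-a2* and in 21.3% of all promoters. The GATA motif was in those of *Hba-x* and *Alas2* and in 12.8% of all, and a TATA-like motif was in all of these windows but that of *Alas2* and in 16.2% of all. These matches describe the letters of the windows only.

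Adult-type globins made up nearly all globin counts, and their amount varied widely between libraries of the same group. Counts of the 9 members summed to 0.250%, 0.166%, 0.109%, 0.0154% and 0.0181% of the library in control replicates 1 to 5, a range of 16.3-fold. In *WD1* cKO replicates 1 to 5 they summed to 0.115%, 0.0718%, 0.0518%, 0.0243% and 0.0189%, a range of 6.07-fold. The mean share was 0.112% ± 0.100 (SD, n = 5) in control and 0.0563% ± 0.0391 (SD, n = 5) in *WD1* cKO libraries, and the lowest library of all was a control. Counting error was small beside this spread, since the 95% exact binomial interval of the lowest share ran from 0.0149% to 0.0158% and that of the highest from 0.248% to 0.253%. Replicates 4 and 5 were the 2 lowest of both groups, but the labels do not say what a replicate number stands for. Within a number, the share in the *WD1* cKO library was 0.459, 0.433, 0.475, 1.58 and 1.05 times that of the control library.

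*Hbb-bs*, an adult beta-globin gene, had the highest level per length of all members. It reached 1293, 861, 588, 88.8 and 108 CPM in the control libraries and 642, 373, 273, 141 and 108 CPM in the *WD1* cKO libraries. Its level thus differed 14.6-fold between the highest and the lowest library, and the groups overlapped. Its log2 fold change, *WD1* cKO minus control, was -0.93 (SE 0.69, adjusted p = 1.00 in the quasi-likelihood test of edgeR).

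*Hbb-bt*, the neighbouring adult beta-globin gene, followed it. The control libraries held 390.0, 267, 179.6, 21.3 and 26.2 CPM and the *WD1* cKO libraries 187, 115, 93.0, 36.4 and 29.3 CPM. The order of libraries within each group was that of *Hbb-bs*. The log2 fold change was -0.94 (SE 0.73, adjusted p = 1.00 in the same edgeR test).

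Of the alpha-globin genes, *Hba-a1* was measured at 543, 421, 153, 30.9 and 32.8 CPM in the control libraries. The *WD1* cKO libraries held 154, 109, 73.2, 32.2 and 28.0 CPM. The first 2 control libraries lay above every *WD1* cKO library, whereas control replicates 4 and 5 lay among the lowest. With a log2 fold change of -1.57 (SE 0.76, adjusted p = 1.00, edgeR), it was the member farthest from 0.

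*Hba-a2* took another course. It was counted at 115, 1.98, 95.4, 7.13 and 7.38 CPM in the control libraries, so that replicate 2, the second richest in *Hbb-bs*, was the lowest of all 10. The *WD1* cKO libraries held 96.8, 66.4, 47.2, 21.1 and 15.9 CPM. Its log2 fold change was 0.14 (SE 0.86, adjusted p = 1.00, edgeR), and it fell below 0 when any of 4 single libraries was left out, which are control replicates 2, 4 and 5 and *WD1* cKO replicate 1. It was 0.84 without control replicate 1 and 0.61 without control replicate 3, so single libraries set both its sign and its size.

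*Alas2*, the heme synthesis gene of red cells, was measured at 120.3, 79.6, 53.6, 6.54 and 7.95 CPM in control and at 53.1, 34.6, 22.0, 11.2 and 7.26 CPM in *WD1* cKO libraries. High and low libraries were those of the beta-globin genes. The log2 fold change was -1.06 (SE 0.73, adjusted p = 1.00, edgeR).

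*Slc4a1*, the band 3 gene, had the lowest level per length of the members that could be tested. Control libraries held 32.7, 15.0, 9.26, 0.698 and 0.879 CPM. *WD1* cKO libraries held 11.1, 19.4, 2.55, 0.558 and 1.07 CPM, with replicate 2 rather than replicate 1 at the top. The log2 fold change of -0.74 (SE 0.97, adjusted p = 1.00, edgeR) became 0.12 without control replicate 1.

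**Figure D1:**
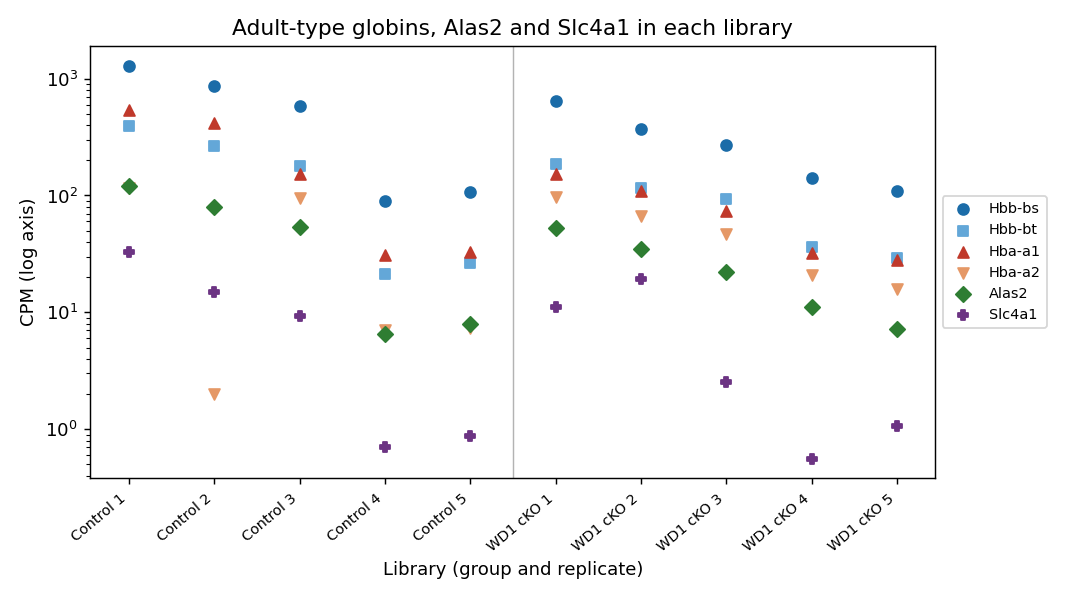
CPM of the 4 adult-type globin genes, *Alas2* and *Slc4a1* (log axis) in each of the 10 libraries, control to the left of the line and *WD1* cKO to the right, 1 point per gene and library. *Hbb-bs* runs from 88.8 to 1293 CPM, *Hbb-bt*, *Hba-a1* and *Alas2* are high and low in much the same libraries, *Slc4a1* is highest of the *WD1* cKO libraries in replicate 2, and *Hba-a2* drops to 1.98 CPM in control replicate 2.

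The test between groups required 5 or more libraries with 10 or more counts, which these 6 members passed while *Hbb-y*, *Hbb-bh1* and *Hba-x* did not. None of the 6 had an adjusted p below 0.05 in edgeR, against 0.04% of the 17490 genes tested, and none had an unadjusted p below 0.05, the lowest of the 6 being 0.059 for *Hba-a1*. Over all genes, 2.38% were lower and 2.12% higher in *WD1* cKO embryos at that unadjusted level. DESeq2's Wald test also called 0 of the 6, with 0.064 as the lowest unadjusted p. With the replicate number as a block, 5 of the 6 were lower at an unadjusted p below 0.05 in edgeR, beside 3.62% of all genes. The adjusted p of the members was 0.39 or more in that fit. The log2 fold change was negative for 5 of the 6 with a median of -0.94, beside a median of 0.00022 over all genes, but these members moved together across libraries and do not count as separate observations. Without control replicate 3, the library with spinal cord genes, the log2 fold change was -0.93 for *Hbb-bs* and -1.69 for *Hba-a1*, again without a call.

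The SD of log2 CPM over the 10 libraries, with 0.5 added, was 1.40 for *Hbb-bs*, 1.51 for *Hbb-bt*, 1.57 for *Hba-a1*, 1.90 for *Hba-a2*, 1.51 for *Alas2* and 1.90 for *Slc4a1*. The median over the 17490 genes tested was 0.116. Ranked from the widest spread, the 6 members took places between 12 and 25. Their spread between libraries was therefore far wider than that of a typical gene of the ganglion. The difference between group means was no larger than this SD. The SD also holds the differences between replicate numbers, of which 4 and 5 were the lowest in member share in both groups.

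**Figure D2:**
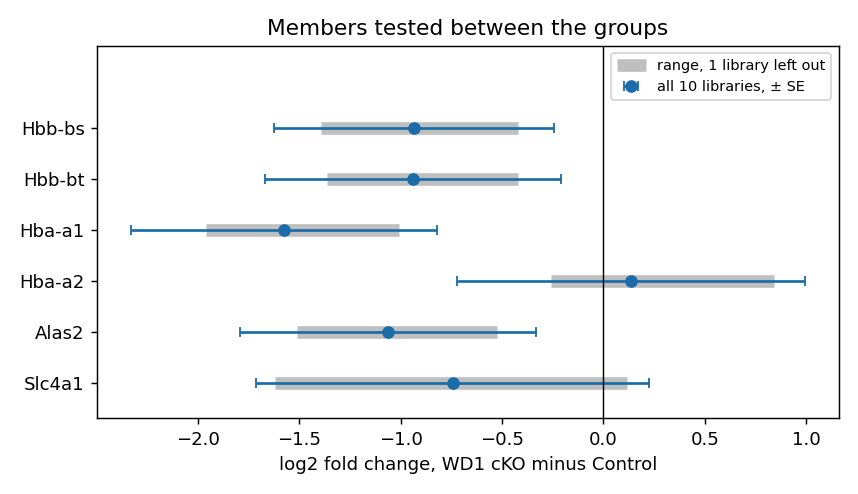
Log2 fold change (*WD1* cKO minus control) of the 6 tested members with all 10 libraries (points, bars ± SE) and its range over the fits that omit 1 library each (grey). *Hba-a1* lies farthest from 0 at -1.57, while the grey ranges of *Hba-a2* and *Slc4a1* cross 0.

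Levels per length of the annotated exons were set beside each other between genes, as counted. In control libraries the mean was 765 CPM per kb ± 667 (SD, n = 5) for *Hbb-bs*, 291 ± 288 for *Hba-a1*, 252 ± 226 for *Hbb-bt*, 68.0 ± 82.6 for *Hba-a2*, 22.3 ± 20.2 for *Alas2* and 2.39 ± 2.699 for *Slc4a1*. Because all of them vary with the library, the order was read within libraries. *Hbb-bs* stood above *Hba-a1* in all 10, *Hbb-bt* above *Hba-a2* in all 10 and *Alas2* above *Slc4a1* in all 10 libraries. *Hba-a1* stood above *Hbb-bt* in 4 of 5 control libraries and in 0 of 5 *WD1* cKO libraries, so these neighbours have no common order. Among the scarcest members, *Slc4a1* stood above *Hbb-y* in 6 of 10 libraries and *Hbb-y* above *Hba-x* in 6 of 10. The adult alpha-like genes together had 0.329 times the CPM per kb of the adult beta-like genes on average (SD 0.0271 over 10 libraries), from 0.289 to 0.376. How reads shared by *Hba-a1* and *Hba-a2*, or by *Hbb-bs* and *Hbb-bt*, were counted is not given in the sources used here. If they were left out, the levels of these genes would be too low, and by unlike amounts. The alpha to beta ratio and the order of *Hba-a1* and *Hbb-bt* therefore describe counts and may differ from amounts of RNA.

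A ratio within a library takes out the total amount of red cell RNA, although it could still vary with that amount. Per 100 counts of *Hbb-bs*, *Hbb-bt* had 30.2, 31.1, 30.6, 24.0 and 24.3 counts in the control libraries and 29.1, 30.9, 34.1, 25.8 and 27.1 in the *WD1* cKO libraries. The 2 lowest ratios of each group were in replicates 4 and 5, the libraries poorest in globin. The log2 ratio of the *WD1* cKO libraries was 0.07 above that of control, a difference smaller than the SD of 0.19 in control and 0.16 in *WD1* cKO libraries (two-sided exact permutation test, p = 0.516, n = 5 per group, smallest p possible 0.0079). It was the only 1 of the 4 planned ratios with enough counts for a test, so that its adjusted p is the same.

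*Alas2* kept a similar proportion to *Hbb-bs* throughout, with 7.36 to 9.31 counts per 100 in control and 6.71 to 9.28 in *WD1* cKO libraries. Here too the 2 lowest ratios of each group were in replicates 4 and 5. *Slc4a1* varied more. Its ratio was 2.53, 1.74, 1.58, 0.786 and 0.813 per 100 in control and 1.73, 5.21, 0.933, 0.395 and 0.985 in *WD1* cKO libraries. *WD1* cKO replicate 2 therefore held more *Slc4a1* for its globin than any other library.

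The 2 alpha-globin genes summed to a steady proportion of *Hbb-bs*, with 37.2 to 50.9 counts per 100 in control and 37.6 to 47.1 in *WD1* cKO libraries. The split between them was not steady. *Hba-a2* took 17.5%, 0.469%, 38.4%, 18.7% and 18.4% of their joint counts in control replicates 1 to 5. It took 38.6%, 37.8%, 39.2%, 39.6% and 36.2% in *WD1* cKO replicates 1 to 5. The 95% exact binomial interval ran from 0.342% to 0.627% in control replicate 2 and from 16.8% to 18.1% in control replicate 1, and its lower bound was 33.8% or more in all *WD1* cKO libraries and in control replicate 3. Thus 4 control libraries lay outside the range of the other 6, while control replicate 3 lay within the range of the *WD1* cKO libraries. With both genes summed as 1, the log2 fold change was -1.13 (SE 0.73, adjusted p = 1.00, edgeR), an alternative chosen after the values were seen.

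The counts of these near-identical genes are uncertain. In the GENCODE transcripts of GRCm38 their coding sequences of 426 bases differed at 1 base, C381T, with the base of *Hba-a1* first and positions counted from 1 at the first coding base. The stretch from coding base 351 to 410 is shown because it holds the only coding difference by which a read could be placed, given in capitals.
Hba-a1: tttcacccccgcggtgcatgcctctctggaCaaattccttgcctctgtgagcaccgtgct
Hba-a2: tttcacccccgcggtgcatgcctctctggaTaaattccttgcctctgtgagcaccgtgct

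Outside the coding part the 2 transcripts differ more, and 67.5% of the 50-base words of the *Hba-a1* transcripts also occur in *Hba-a2* and 86.9% the other way round. For words of 100 bases these shares were lower, at 56.5% and 74.5%. *Hbb-bs* and *Hbb-bt* likewise differ at 1 of 441 coding bases, with 65.8% and 58.3% of their 50-base words and 62.6% and 54.8% of their 100-base words shared. How reads that map to several places were counted is not given in the sources used here, so only reads over the differing bases may separate each pair. *Hbb-y* matches *Hbb-bs* at 74.4%, *Hbb-bh1* matches *Hbb-bs* at 73.9% and *Hba-x* matches *Hba-a1* at 61.7% of coding bases, with no 50-base word in common in any of these 3 pairs.

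The 5 protein-coding genes that follow *Hba-a2* in the annotation were looked at after the split was seen. *Stk10*, a kinase gene and the fifth of them, was measured at 20.5, 28.9, 14.3, 19.9 and 21.0 CPM in the control libraries and at 13.1 to 15.0 CPM in the *WD1* cKO libraries. *Sh3pxd2b*, the second, was measured at 205, 249, 174, 202 and 189 CPM in control and at 137 to 174 CPM in *WD1* cKO libraries. The control library with the least *Hba-a2* was the highest in both genes, and control replicate 3 was the lowest control in both. In edgeR neither passed the adjusted threshold (*Stk10* log2 fold change -0.60, SE 0.14, adjusted p = 0.75, and *Sh3pxd2b* -0.35, SE 0.09, adjusted p = 0.84). None of the other 3 had both features. How many genes elsewhere have both was not counted, so no background stands beside these 2 genes. *Ubtd2* was measured at 20.2 to 25.3 CPM in control and at 22.8 to 25.8 CPM in *WD1* cKO libraries (log2 fold change 0.08, SE 0.06, adjusted p = 1.00, edgeR). *Hbq1a* and *Efcab9* were below 1 CPM in every library and were not tested, and *Hbq1a* was at 0 in control replicate 2. The relation of these genes to the alpha-globin split was not tested.

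**Figure D3:**
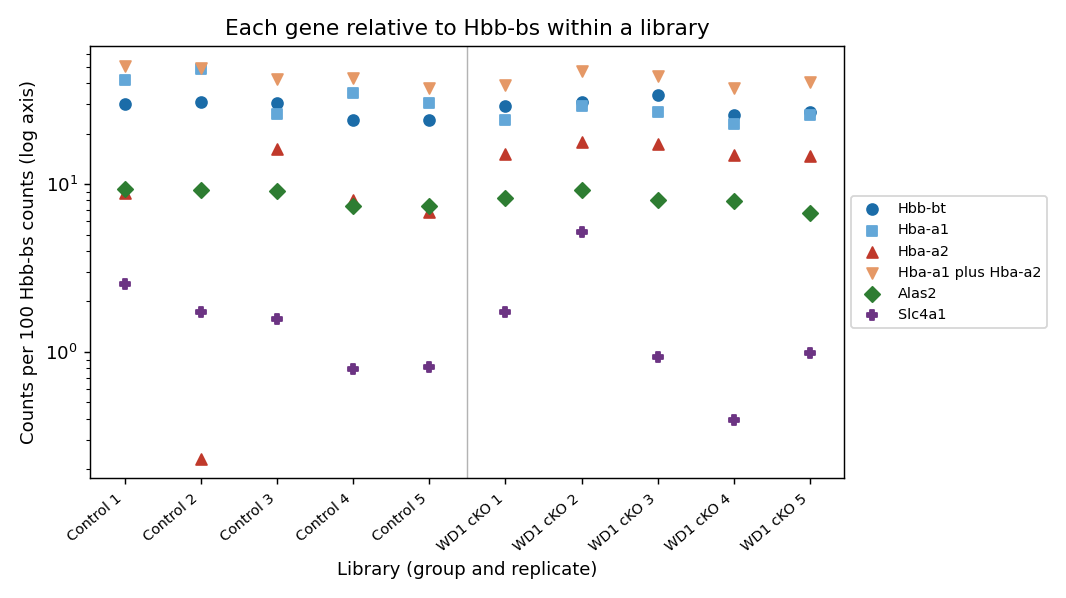
Counts of each gene per 100 *Hbb-bs* counts of the same library (log axis), 1 point per gene and library, control left of the line and *WD1* cKO right. *Hbb-bt*, *Alas2* and the sum of both alpha-globin genes stay level, while *Hba-a2* falls to 0.230 in control replicate 2 and *Slc4a1* rises to 5.21 in *WD1* cKO replicate 2.

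Embryonic globins were found only as traces. *Hbb-y* had 20, 6, 6, 3 and 6 counts in the control libraries and 18, 2, 13, 3 and 2 counts in the *WD1* cKO libraries, which is 0.0234% to 0.196% of all beta-like counts in control and 0.0155% to 0.117% in *WD1* cKO libraries. The 2 ranges overlapped, and the binomial intervals were wide, from 0.0719% to 0.426% for the highest share (control replicate 5). *Hbb-bh1* had 4, 2, 0, 0 and 0 counts in control and 2, 2, 0, 0 and 0 counts in *WD1* cKO libraries. A count of 0 allows a share of up to 0.0184% of beta-like counts in control replicate 3 and of up to 0.100% in control replicate 4, the least deep for these genes, when the limit is set at 3 counts. The two-sided 95% interval of a count of 0, which the plot of embryonic shares draws, reaches 0.0226% and 0.123% in these libraries. Intervals and limits cover counting error only.

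*Hba-x*, the embryonic alpha-like gene, had 16, 14, 6, 1 and 0 counts in the control libraries and 19, 7, 12, 5 and 4 counts in the *WD1* cKO libraries. This is 0.118%, 0.146%, 0.113%, 0.0965% and 0% of alpha-like counts in control and 0.318%, 0.151%, 0.328%, 0.474% and 0.262% in *WD1* cKO libraries. The median share was 0.113% in control and 0.318% in *WD1* cKO libraries, and the lowest *WD1* cKO share lay above the highest control share. These 2 closest shares differed by less than counting error, with 95% exact binomial intervals from 0.0607% to 0.311% and from 0.0796% to 0.244%. That comparison covers these 2 libraries and not the groups as a whole. A count of 0 in control replicate 5 allows a share of up to 0.328% by the limit of 3 counts, and its two-sided interval reaches 0.402%, so only the *WD1* cKO share of 0.474% lay above both. The log2 ratio of *Hba-x* to *Hba-a1* was on average 1.84 higher in *WD1* cKO than in control libraries (SD 0.63 and 0.62). With at least 10 counts of *Hba-x* in only 4 libraries, this ratio was too thinly counted for the planned test and is given as a description. It also rests on the uncertain count of *Hba-a1*.

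**Figure D4:**
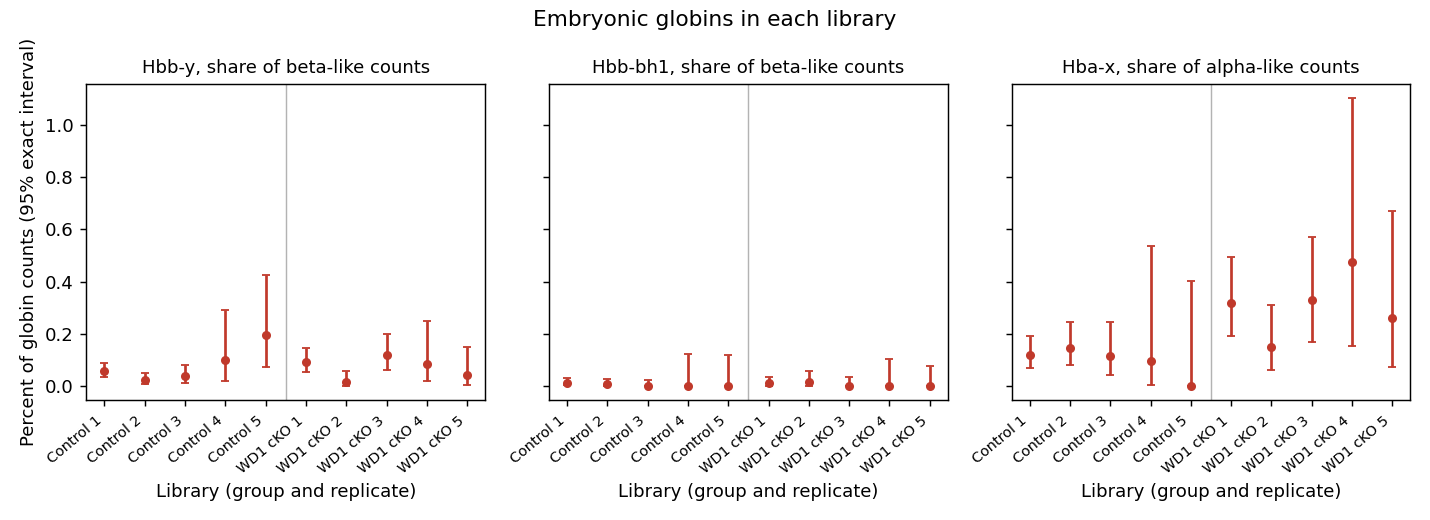
Share of each embryonic globin among beta-like (*Hbb-y*, *Hbb-bh1*) or alpha-like (*Hba-x*) globin counts in each library, in percent with 95% exact binomial intervals. All shares lie below 0.475%, and those of *Hba-x* reach 0.146% in control and 0.474% in *WD1* cKO libraries, with overlapping intervals.

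Other genes of immature red cells were set beside *Slc4a1*. The membrane skeleton gene *Epb42* (protein 4.2) and the transcription factor genes *Klf1* and *Gata1* together had 70, 48, 36, 11 and 1 counts in the control libraries. The *WD1* cKO libraries had 31, 81, 15, 9 and 12 counts. Per 100 *Hbb-bs* counts this sum was 0.824 in *WD1* cKO replicate 2 and between 0.0407 and 0.455 in the other 9 libraries, most of which rest on few counts. *Epb42* carried this, with 0.437 per 100 *Hbb-bs* counts in that library and 0.179 or less in the others. *Klf1* and *Gata1* did not stand out there for its globin, since *Klf1* was at 0.275 in *WD1* cKO replicate 2 and 0.290 in control replicate 4, and *Gata1* at 0.112 and 0.124. *Gata1* had few counts in all libraries (0 to 15).

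Granulocyte genes were highest in control replicate 1 and *WD1* cKO replicate 2, as were *Slc4a1* and the summed precursor markers. The 12 genes of that list, among them *Mpo*, *Elane*, *Ngp*, *Ltf* and *S100a8*, summed to 42.0, 12.5, 19.6, 10.3 and 7.69 CPM in control and to 11.1, 49.2, 9.99, 11.01 and 13.5 CPM in *WD1* cKO libraries. Control replicate 1 and *WD1* cKO replicate 2 were the 2 highest libraries for 10 of the 12 genes. Over all 10 libraries the 10 macrophage genes summed to 100.5 to 128 CPM, the 10 endothelial genes to 329 to 397 CPM and the 10 lymphocyte genes to 2.24 to 4.67 CPM. The 12 platelet genes summed to 66.6 to 79.2 CPM, mostly through *Itgb3* (36.9 to 48.2 CPM) and *F2rl2* (14.3 to 26.8 CPM), while the platelet genes *Gp9*, *Ppbp* and *Gp1bb* were below 0.5 CPM in every library. The 10 skeletal muscle genes summed to 135, 65.7, 124, 30.7 and 209 CPM in control and to 55.0 to 116 CPM in *WD1* cKO libraries, with control replicate 5, which was poor in globin, the highest. The part of any of these cells in the member values was not tested. Without these 2 libraries, a choice made after the values were seen, the log2 fold change was -0.50 for *Hbb-bs* (SE 0.76), -0.52 for *Hbb-bt*, -1.15 for *Hba-a1*, 0.71 for *Hba-a2*, -0.66 for *Alas2* and -0.76 for *Slc4a1* (SE 1.01), with adjusted p = 1.00 for each in edgeR.

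**Figure D5:**
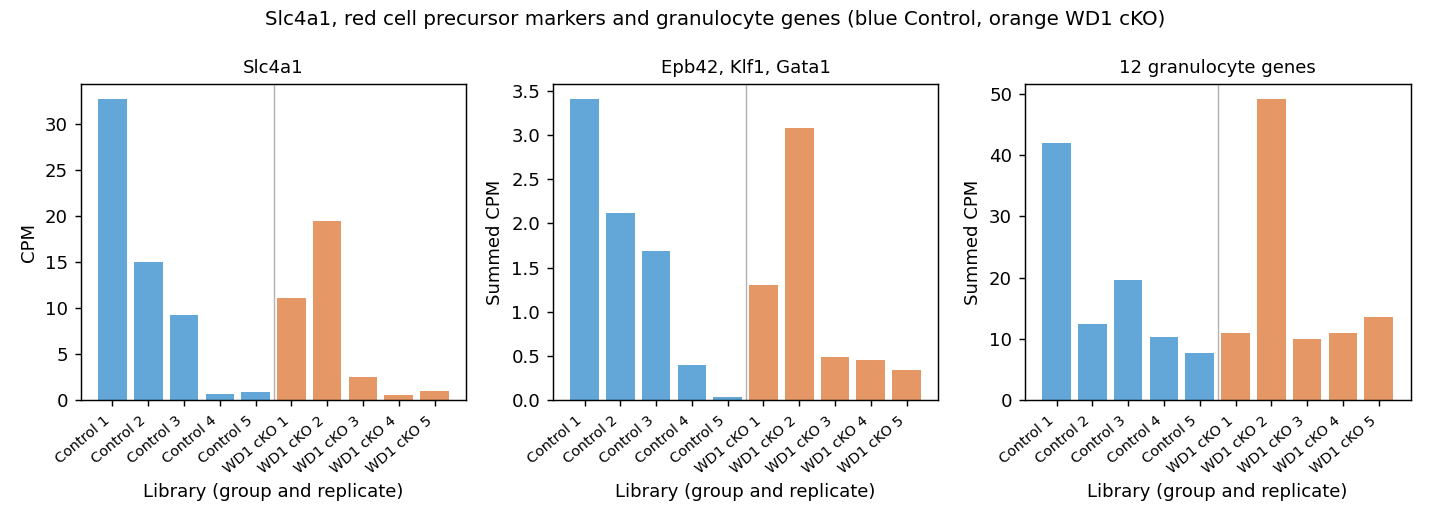
*Slc4a1* (CPM), the summed CPM of *Epb42*, *Klf1* and *Gata1*, and the summed CPM of 12 granulocyte genes in each library, as bars from 0 (blue, control, and orange, *WD1* cKO). Control replicate 1 and *WD1* cKO replicate 2 are the 2 highest in all 3 panels, at 42.0 and 49.2 CPM for the granulocyte genes.

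Beyond the members, 6 lists of globin, heme, iron, membrane, enzyme and transcription factor genes of the red cell held 102 genes, of which 84 could be tested. None had an adjusted p below 0.05 in edgeR or in DESeq2. At an unadjusted p below 0.05 in edgeR, 1 gene was lower (1.19%, beside 2.38% of all genes) and 1 was higher (1.19%, beside 2.12%), and the median log2 fold change was -0.02. In this fit the lists had no larger share of such genes than the whole table, whereas with the replicate number as a block 11.9% of them were at that level in either direction, beside 7.10% of all genes.

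Among other globins, cytoglobin (*Cygb*) was measured at 10.97 to 14.6 CPM, neuroglobin (*Ngb*), the globin of neurons, at 1.69 to 2.99 CPM and androglobin (*Adgb*) at 2.31 to 3.53 CPM, with no sign of the 14.6-fold range of *Hbb-bs*. Their log2 fold changes were 0.02, 0.12 and -0.05. *Hbq1b*, a theta-globin gene of the alpha cluster, had 0.974, 1.28, 0.329, 0.515 and 0.483 CPM in control and 0.294, 0.493, 0.165, 0.0507 and 0.231 CPM in *WD1* cKO libraries. The ranges overlapped. It was the 1 list gene lower at the unadjusted level (log2 fold change -1.48, SE 0.46, adjusted p = 1.00, edgeR), and the 1 higher gene was *Myb*, a transcription factor of blood progenitors (log2 fold change 0.41, SE 0.16, adjusted p = 1.00, edgeR). *Hbb-bh0*, *Hbb-bh2* and *Hbb-bh3* were at 0 counts in every library.

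Most heme synthesis genes other than *Alas2* varied little between libraries. Of these 16 genes, all tested, 0 had an unadjusted p below 0.05, 9 were on the lower side of 0 and 7 on the higher side. The most abundant were *Slc25a39*, a mitochondrial carrier (80.0 to 104 CPM), *Fech*, ferrochelatase, which inserts the iron (51.4 to 71.5 CPM), and *Tmem14c*, a porphyrinogen carrier (48.4 to 53.3 CPM). *Alas1*, the housekeeping counterpart of *Alas2*, was measured at 46.6 to 56.1 CPM, with a log2 fold change of -0.04. The widest range was that of *Slc25a37*, mitoferrin 1, which brings iron into the mitochondria, at 43.7, 34.8, 30.1, 26.7 and 23.2 CPM in control and 23.9 to 37.3 CPM in *WD1* cKO libraries, a 1.89-fold range.

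Iron and heme handling genes were mixed. The ferritin heavy chain gene *Fth1* was measured at 239 to 280 CPM, the transferrin receptor gene *Tfrc* at 163 to 245 CPM and the iron carrier gene *Slc11a2* at 43.5 to 52.3 CPM, and 0 of 15 tested genes had an unadjusted p below 0.05. *Hpx*, the heme-binding hemopexin (0.188 to 1.51 CPM), and *Hp*, the haemoglobin-binding haptoglobin (0.463 to 2.47 CPM), varied 8.03-fold and 5.33-fold between libraries. Of the membrane and cytoskeleton genes, the adducin gene *Add2* (483 to 593 CPM), the water channel gene *Aqp1* (239 to 417 CPM) and the dematin gene *Dmtn* (188 to 222 CPM) were the most abundant, and 0 of 18 passed the unadjusted level. Of the enzymes and late differentiation genes, the antioxidant genes *Prdx2* (297 to 322 CPM) and *Cat* (157 to 174 CPM) and the ubiquitin ligase gene *Ube2o* (167 to 203 CPM) led, with 0 of 17. The transcription factors and receptors were led by *Kit* (176 to 219 CPM), *Ldb1* (151 to 166 CPM) and *Zbtb7a* (38.7 to 49.8 CPM).

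The lists held genes at a steady level beside genes that varied widely between libraries. At least a 5-fold range between the highest and the lowest library was found for 14 of the 84 tested genes, against 2.25% of all 17490. It was found for 8 of 18 membrane and cytoskeleton genes (among them *Epb42*, *Rhag*, *Rhd*, *Ermap*, *Slc14a1* and *Tspo2*), for 0 of 16 heme synthesis genes, for 2 of 15 heme and iron handling genes (*Hpx* and *Hp*), for 1 of 4 other globins (*Hbq1b*), for 1 of 14 transcription factors and receptors (*Gata2*) and for 2 of 17 enzymes and late differentiation genes (*Trim10* and *Isg20*). These genes, *Slc25a37* and the platelet genes were named after their values were seen. The 14 genes averaged 0.481 to 3.24 CPM over the 10 libraries, and the heme synthesis genes 4.84 to 89.1 CPM. The contrast between lists, and with all genes, was not matched for level. Some genes at a low level had a narrower range, such as *Myb* (mean 1.53 CPM, 2.07-fold). The 14 did not all vary alike. *Slc14a1* was highest in *WD1* cKO replicate 4 and *Gata2* in control replicate 5, both poor in globin.

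Likeness to the members was measured as the SD over 10 libraries of the log2 ratio of a gene's count to their summed count, among 12754 genes averaging 100 or more counts. The members come out low by construction, with 0.0702 for *Hbb-bs*, 0.116 for *Hbb-bt*, 0.117 for *Alas2*, 0.327 for *Hba-a1* and 0.966 for *Slc4a1*, but *Hba-a2* had 1.91 and took place 12713. The 12748 other genes had a median of 1.46. The most alike was *Tent5c*, a poly(A) polymerase gene, with an SD of 0.698 and with 23.1, 15.0, 11.9, 5.22 and 5.05 CPM in control and 11.9, 12.1, 7.57, 5.43 and 4.73 CPM in *WD1* cKO libraries. It was followed by the complement gene *C3* (0.801), *1500015A07Rik* (0.899), *Gm47583* (1.03), the transferrin gene *Trf* (1.04), *Ube2l6* (1.04), *Ptprv* (1.08), the retinoic acid binding protein gene *Crabp1* (1.10), the ribosomal protein gene *Rpl30* (1.13) and *Bpgm*, the enzyme that makes bisphosphoglycerate in red cells (1.14). The SD of the members' log2 summed count was itself 1.46, so a gene with a constant count would score about that. From the fourth gene on the values approached the median. *Rpl30* was low in control replicate 4 (5.95 CPM) and *WD1* cKO replicates 4 and 5 (18.1 and 17.1 CPM). It was at 29.0 to 33.0 CPM elsewhere, with 30.6 CPM in control replicate 5, which was poor in globin.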

How the data were processed

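Reads from stranded mRNA libraries were mapped to GRCm39 by the authors (STAR 2.7.8a) and assigned to genes (featureCounts 2.0.1), and the deposited values are raw counts per library. The strand setting and the treatment of reads with several places are not given in the sources used here. Symbols were matched for 52081 of 55414 genes through GENCODE tables of GRCm38, used for names, chromosomes, exon lengths and gene order. The members and gene lists were chosen with earlier results of these data known. Each library was taken as 1 replicate. Sampling noise did not account for the differences in any of the 20 within-group library pairs (chi-square over its degrees of freedom 4.35 to 15.0). This cannot show whether the libraries came from separate embryos or litters. The main analysis used edgeR 4.0.16 in R 4.3.3 (TMM scaling, at least 10 counts in at least 5 libraries, quasi-likelihood test, two-sided, no covariate, Benjamini-Hochberg over 17490 genes). The code was tested on simulated data with the same spread between replicates for all genes. That test does not cover genes as variable as the members. CPM values are scaled by TMM. Binomial intervals are exact (Clopper-Pearson, 95%), and 3 counts set the limit for a count of 0. All members were named, with the 3 most abundant genes of each list (and *Alas1*, *Myb* and the widely varying genes, chosen later), other globins that passed the filter and the 10 genes most like the members. Alternatives were DESeq2 1.42.0 and its size factors, scaling without erythroid genes, no filter, the replicate number as a block, and each library left out in turn.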

Additional observations from a re-analysis of the deposited data

Results flagged for a closer look

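Of 28 combinations of a measure and a group examined for a sample far from the other 4 (Dixon's criterion), 1 was found. Chance gives about 1 in 20, which is 1.4 over the 28, so this number is no more than chance gives. *Slc4a1* had 5.21 counts per 100 *Hbb-bs* counts in *WD1* cKO replicate 2, against 0.395 to 1.73 in the other 4 *WD1* cKO libraries. The gap to the nearest of them was 0.723 of the whole range, just over the critical value of 0.71. That library also had the highest sum of 3 other red cell precursor markers per *Hbb-bs* count, mostly *Epb42*, and the highest sum of granulocyte genes, and the part of such cells in the value was not tested.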

How the results depend on the processing

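No member and no other erythroid gene had an adjusted p below 0.05 in edgeR or DESeq2 under any alternative run (0 in each, also in the range without 1 library, 0 to 0). The direction of *Hbb-bs*, *Hbb-bt*, *Hba-a1* and *Alas2* was negative under all of them, from -1.39 to -0.42, -1.37 to -0.42, -1.96 to -1.01 and -1.51 to -0.52. It turned for *Hba-a2* without control replicate 2 (-0.17), 4 (-0.15) or 5 (-0.14) or *WD1* cKO replicate 1 (-0.26), in a range up to 0.84 without control replicate 1, and for *Slc4a1* without control replicate 1 (0.12, in a range down to -1.62 without *WD1* cKO replicate 2). The *Hbb-bt* to *Hbb-bs* difference ran from 0.016 to 0.12 with 1 library left out.

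With the replicate number as a block, 5 of 6 members were lower at an unadjusted p below 0.05 (*Hba-a1* 0.0015, *Alas2* 0.0050, *Hbb-bt* 0.031, *Slc4a1* 0.039, *Hbb-bs* 0.044), beside 3.62% of all genes, with adjusted p from 0.39 to 0.84 in edgeR. The summed alpha-globin genes had a log2 fold change of -0.70 (adjusted p = 0.63) and the *Hbb-bt* to *Hbb-bs* difference was 0.07 (exact sign-flip p = 0.25). Same-numbered libraries correlated at 0.33, 0.036, 0.32, 0.35 and 0.39 in their deviations from the group means, not all over 0.1, and not every library correlated best with its own number, so the numbers were not taken as pairs. *Hba-a1* alone was below 0.05 unadjusted without the filter and without control replicate 4 or 5 or *WD1* cKO replicate 1. Other erythroid genes at that level numbered 2 of 84 in the reported fit (2.38%, beside 4.50% of all genes), 4 of 96 without the filter (4.17%, 4.03%), 10 with the block (11.9%, 7.10%) and 1 in DESeq2 (1.19%, 3.68%). They numbered 1 to 6 with 1 library left out, with 5 without control replicate 4 (5.95%, 4.67%), 6 without control replicate 5 (7.14%, 5.57%) or *WD1* cKO replicate 1 (7.14%, 5.25%), and 1 without *WD1* cKO replicate 2 (1.19%, 4.20%). Depth limits the embryonic globins, of which 0 reached the filter. The wide spread between libraries, with SE of 0.69 to 0.97 on the log2 scale, limits the other members.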
